A study of Mus musculus with 4 samples.

Results

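The genes described here are 9 that mark or specify the macrophage: the growth factor Csf1 and its receptor Csf1r, the surface receptor Emr1 (F4/80), the integrin chains Itgam (CD11b) and Itgax (CD11c), and the transcription factors Spi1 (PU.1), Maf, Cebpa and Cebpb. They were taken by gene name. The array named 23212 genes, and the 9 were read by 17 of its 55681 probes. Of the 9 genes, 4 had 1 probe, 2 had 2 probes and 3 had 3 probes. Spi1 stood on the array under its older name Sfpi1.

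RNA of mouse bone marrow-derived macrophages (BMDMs) was measured on 4 one-colour arrays, 1 for each condition. The question was how loss of Lamtor1 or inhibition of mTOR changes the response to IL-4. All mice were C57BL/6J and 10 weeks old, and all marrow cells were grown for 6 days with L929 cell supernatant, which carries M-CSF, the product of Csf1. Stimulation lasted 2 days. The M1 array held wild-type cells given LPS at 100 ng/ml together with IFNg at 20 ng/ml. The M2 array held wild-type cells given 50 ng/ml IL-4. The Lamtor1-deficient M2 array held cells of genotype p18 (2400001E08Rik) -/- given the same IL-4 (Lamtor1 is also called p18). The Torin1 M2 array held wild-type cells given the same IL-4 together with 250 nM of Torin1, an inhibitor of the mTOR kinase. In the study's methods the deletion was driven by Cre from the lysozyme M promoter, which acts in myeloid cells. Every condition is thus a culture, no array is repeated, and how many mice stood behind 1 culture was not given in the sources used here.

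Macrophages depend on CSF1R, a receptor tyrosine kinase whose ligands are M-CSF and IL-34. Signals from it keep the cells alive and support their identity. PU.1 is the factor that sets up the myeloid programme and acts on the genes of Csf1r and Itgam among many others. C/EBP-alpha is known for its part in granulocyte and monocyte precursors, C/EBP-beta for inflammatory and IL-4 responses, and c-Maf for differentiated and anti-inflammatory macrophages. F4/80 is an adhesion G protein-coupled receptor used as a mouse macrophage marker. CD11b and CD11c pair with the beta chain CD18 to form complement receptors, and both also mark other leukocytes.

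In what follows a signal is given as the scanner software's processed signal divided by the 75th percentile of its array, so that 1 equals that percentile, and a ratio is the log2 of this value over the M2 array. Since no condition was repeated, differences were neither tested nor given a p-value. The only spread in the files was that of probes spotted repeatedly on an array, which gave log2 ratios a technical SD of 0.0878 for Lamtor1-deficient over M2, 0.0929 for Torin1 over M2 and 0.0997 for M1 over M2. It holds no spread between cultures or mice. A gene was called lower or higher at 2-fold or more, and where it had several probes the one with the highest mean log2 signal stood for it. All 17 probes were well above background on all 4 arrays, no spot was saturated, and 51.0% to 55.5% of all probes were well above background on an array. The Lamtor1 probe read 51.2 on M1, 66.3 on M2, 1.55 on Lamtor1-deficient M2 and 74.96 on Torin1 M2. The array labelled as Lamtor1-deficient thus had 2.34% of the M2 signal. The M1 array differed from M2 in its whole distribution: the median log2 ratio of all probes was 0.84 after division by the 75th percentile and 0.01 after division by the median, where genes well above background on both arrays had a median of -0.74. M1 ratios are therefore to be read beside that shift, and those of the 9 genes and of the lists are also given after division by the median. The 3 comparisons share the M2 array, so an M2 signal that was high or low would move all 3 the same way.

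Of the 9 genes, Emr1 was called lower and Csf1 higher in Lamtor1-deficient cells, and the other 7 were within 2-fold. Over all 23185 genes with a usable probe, 8.68% were called lower and 8.85% higher, and among genes well above background on both arrays 7.75% and 7.81%. In Torin1-treated cells Emr1, Itgax and Maf were called lower and Csf1 and Cebpb higher, where 11.8% of all genes were lower and 14.3% higher, and 13.2% and 11.9% of those well above background. In M1 cells Emr1, Csf1r, Itgax and Cebpa were called lower and Cebpb higher, where 19.3% of all genes were lower and 30.5% higher, and 25.3% and 25% of those well above background. The median log2 ratio of the 9 genes was -0.44, -0.36 and -0.34 in these comparisons, beside 0.04, -0.05 and 0.74 over all genes and 0.09, 0.02 and 0.08 over those well above background. Quantile normalization gave the 9 genes -0.78, -0.87 and -0.44. After division by the median their M1 median was -1.16, with 5 lower and 1 higher.

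Counted by probe, 7 of the 17 were 2-fold or more lower and 3 higher in Lamtor1-deficient cells, 9 lower and 4 higher in Torin1-treated cells, and 7 lower and 3 higher in M1 cells. Several probes read the same gene, so these counts are not of independent readings. No share over all probes was computed to set beside them. Probes of 1 gene fell on both sides of the threshold for Csf1r, Itgam and Maf without Lamtor1, for Csf1r and Itgam with Torin1, and for Csf1 in M1 cells. All 17 ratios lay beyond the 95% range of the technical spread in Lamtor1-deficient cells and 16 of 17 in each of the other comparisons. In a culture of mixed cells, fewer cells of a type and less RNA per cell cannot be told apart.

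**Figure D1:**
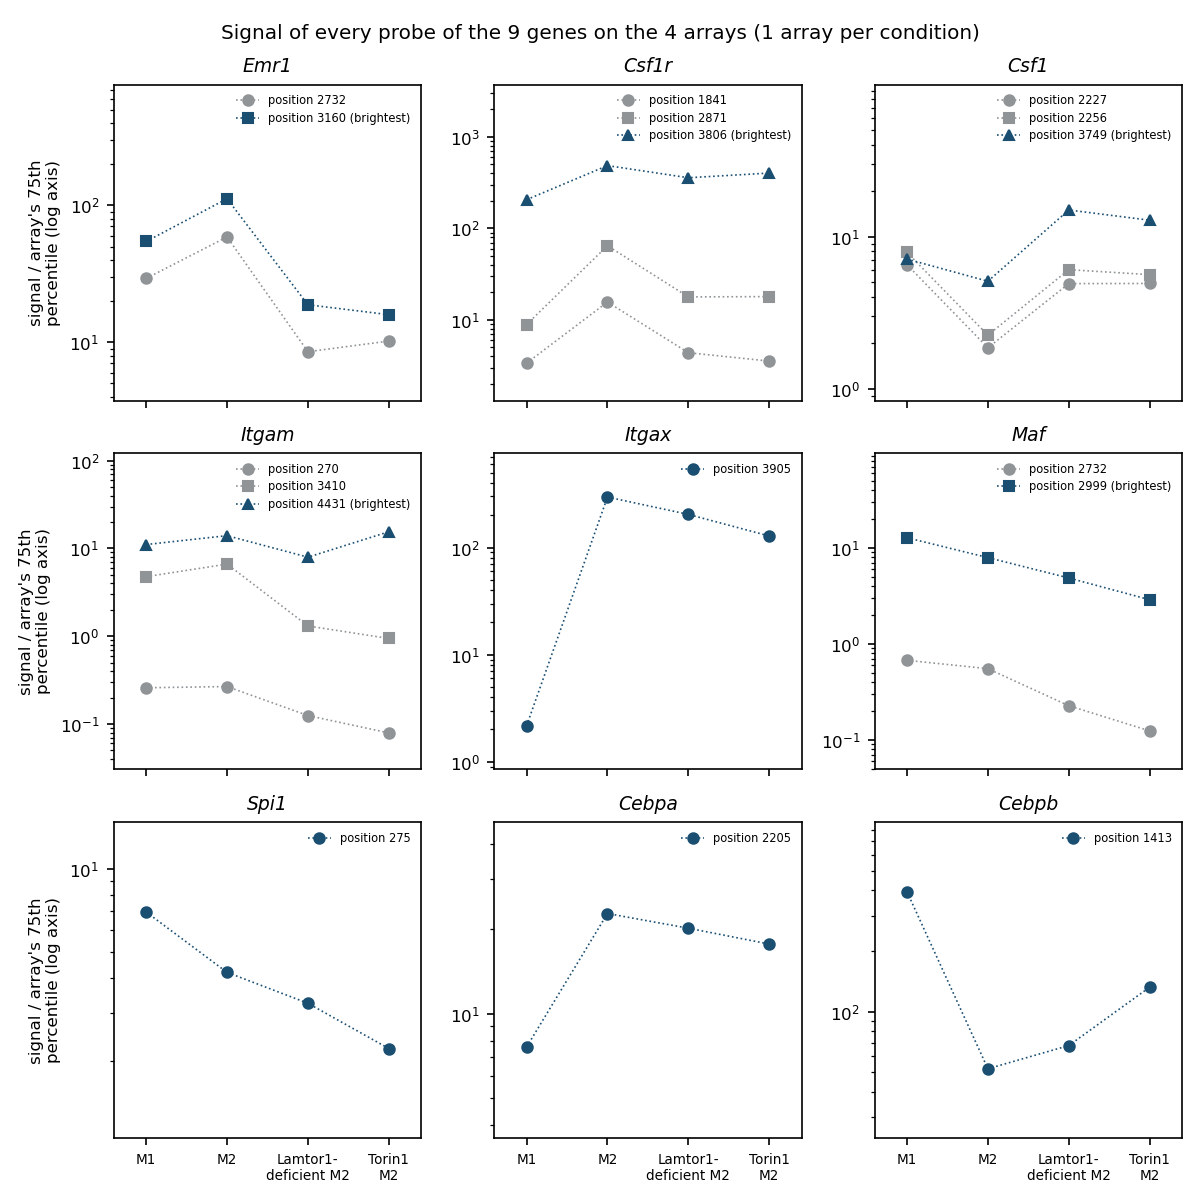
Signal of each probe of the 9 genes over the 75th percentile of its array (vertical axis, log scale) on the M1, M2, Lamtor1-deficient M2 and Torin1 M2 arrays (horizontal axis), with 1 point per probe and array and the brightest probe in dark blue. Both Emr1 probes were highest on M2, all Csf1 probes were lowest on M2, and Itgax on M1 was at 2.17 beside 296 on M2.

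**Figure D2:**
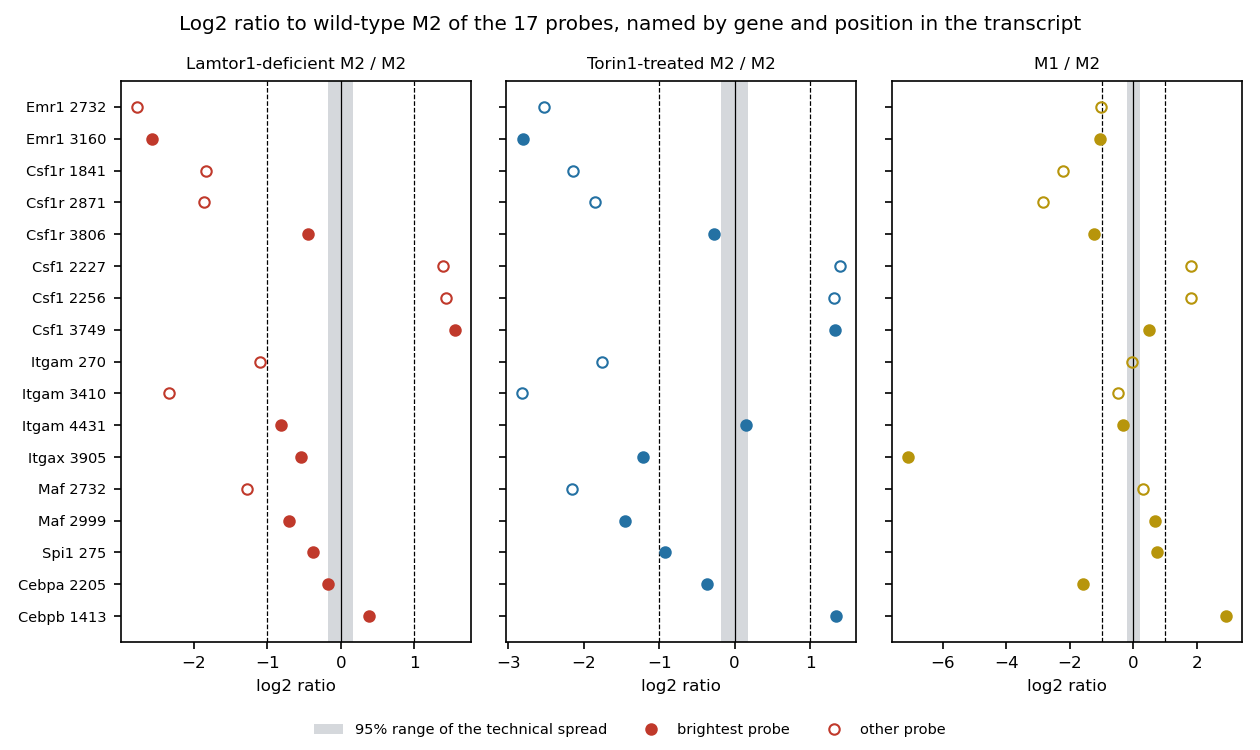
Log2 ratio to M2 (horizontal axes) of the 17 probes, each named by gene and by where it starts in its transcript in bases (vertical axis), in Lamtor1-deficient, Torin1-treated and M1 cells. Dashed lines mark 2-fold, and the 3 probes of Itgam and of Csf1r are spread over more than 1 log2 unit in Lamtor1-deficient and in Torin1-treated cells.

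Csf1, the gene of M-CSF, was higher in Lamtor1-deficient and in Torin1-treated cells than in M2 cells, in all 3 of its probes. One probe reads the end of the long transcripts (variants 1 and 2) and was spotted 10 times on each array. The other 2 read the shorter variant 3, share 31 bases and are therefore not independent. The first 30 bases of a probe of each kind are printed, since they read different ends. The gene is on the minus strand, and the nearer of the variant 3 probes lies 4128 bp from the long-transcript probe in mm9.
Csf1 variants 1 and 2, chr3:107544333-107544392: tgtggggcttacttagccttctggttacag
Csf1 variant 3, chr3:107548550-107548609: cgtgcagattaagatcacattagttttaac

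The long-transcript probe read 7.11 ± 0.321 on M1, 5.09 ± 0.214 on M2, 14.9 ± 0.418 on Lamtor1-deficient M2 and 12.8 ± 0.499 on Torin1 M2 (SD over 10 spots of 1 array). The spots of Lamtor1-deficient and Torin1 M2 did not overlap those of M2 or M1: the lowest of them was 12.0 and the highest M1 spot 7.69. The log2 ratio was 1.55 in Lamtor1-deficient cells, a 2.93-fold higher signal, and 1.33 in Torin1-treated cells, 2.51-fold higher. The variant 3 probes gave nearly the same, with log2 ratios of 1.40 and 1.43 in Lamtor1-deficient cells and 1.40 and 1.32 in Torin1-treated cells. Among the genes well above background, 3.61% had a higher ratio than the long-transcript probe in Lamtor1-deficient cells and 7.24% in Torin1-treated cells. In M1 cells the ends parted: variant 3 was 3.51- and 3.49-fold higher than on M2 and the long transcripts 1.40-fold. With arrays divided by the median, the M1 ratio of the long transcripts was -0.34 and those of variant 3 were 0.99 and 0.98. That division moves every M1 ratio down alike, and the other scalings and normexp gave the long transcripts 0.35 to 0.50. Over 1693 transcripts, each read by probes at least 500 bases apart, the M1 ratio at the 3′ probe minus that at the 5′ probe had a median of -0.61 (quartiles -1.42 and -0.025). The long-transcript probe of Csf1 lies on the 3′ side of those of variant 3 in the genome. These probes read different variants rather than 1 transcript, so the measure is not alike. Whether position had a part in their M1 difference was not tested.

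**Figure D3:**
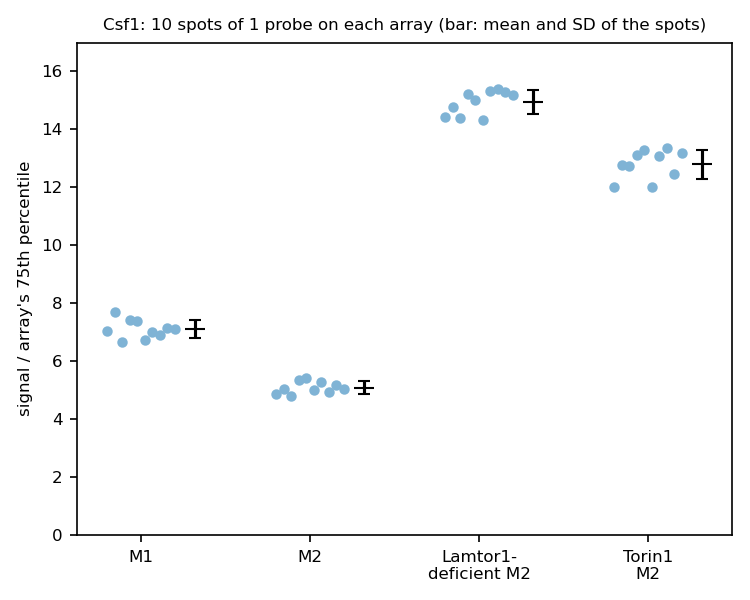
Signal over the array's 75th percentile (vertical axis, linear from 0) of the 10 spots of the Csf1 long-transcript probe on each array, with their mean and SD at the right of each group. The spots are repeats within 1 array, and those of Lamtor1-deficient M2 (14.3 to 15.4) lie above those of M2 (4.78 to 5.44).

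Csf1r, the receptor of M-CSF, was lower than on M2 in all 3 other conditions and in all 3 probes, by amounts that depended on the probe. The probe at base 3806 of the transcript (chr18:61290725-61290784, mm9) was the brightest and read 206 on M1, 485 on M2, 357 on Lamtor1-deficient M2 and 402 on Torin1 M2. It was 1.36-fold lower in Lamtor1-deficient and 1.21-fold lower in Torin1-treated cells, within the 2-fold threshold, and 2.36-fold lower in M1 cells. Quantile normalization moved its log2 ratios from -0.44 to -0.81 without Lamtor1 and from -0.27 to -0.93 with Torin1, still within 2-fold. At base 2871 the probe read 8.90, 64.7, 17.8 and 17.97 on the same arrays and was 3.63-, 3.60- and 7.26-fold lower in Lamtor1-deficient, Torin1-treated and M1 cells. At base 1841 it read 3.37, 15.7, 4.38 and 3.55 and was 3.58-, 4.42- and 4.65-fold lower. After division by the median the M1 log2 ratios of the 3 probes were -2.06, -3.68 and -3.04 in the same order. On the last 2 probes M2 stood alone at the top, and Lamtor1-deficient and Torin1 M2 were within 0.30 log2 units of each other.

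The 3′ probe of Csf1r thus lay 1.40 log2 units above the 5′ probe in Lamtor1-deficient cells and 1.87 in Torin1-treated cells. Over the same 1693 transcripts this difference had a median of 0.02 and 0.09, and 1.59% and 1.65% of them reached that of Csf1r. On M2 the 3′ probe was at 72.2% of the brightest signal of the array, with 46 probes above it, and on M1 at 11.3%. Whether a narrowing of the scale near its top, or transcripts with different ends, had a part in this difference was not tested.

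Among 13 further genes of colony-stimulating factors, their receptors and the signalling below CSF1R, 0 were lower and 1 higher in Lamtor1-deficient cells (median log2 ratio 0.04), 1 lower and 4 higher in Torin1-treated cells (0.37), and 3 lower and 4 higher in M1 cells (-0.05, or -0.87 with 5 lower and 1 higher after division by the median). Csf2rb, the beta chain shared by the receptors for GM-CSF, IL-3 and IL-5, and Csf2rb2, a beta chain of the mouse IL-3 receptor, were 3.03- and 2.88-fold higher with Torin1. Csf2rb read 39.3 on M1, 106 on M2, 189 on Lamtor1-deficient M2 and 320 on Torin1 M2, so that all arrays stood apart. Adam17, a protease that sheds CSF1R from the surface, was 2.89-fold higher with Torin1 and had a log2 ratio of -0.04 without Lamtor1. Inpp5d, the phosphatase SHIP1 that acts against PI3-kinase, was lower with Torin1 by a log2 ratio of -1.23, beside -0.57 without Lamtor1. Csf2, the 1 gene counted as higher without Lamtor1, and Csf3 were not well above background on any array. Among the 11 others the counts were 0 lower and 0 higher without Lamtor1, 1 and 3 with Torin1, and 3 and 2 in M1 cells. Il34 read between 0.09 and 0.12 on all 4 arrays.

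Emr1, which encodes F4/80, had the lowest ratio of the 9 genes after either perturbation when each gene was read by its brightest probe. The probe at base 3160 (chr17:57622868-57622927, mm9) read 54.4 on M1, 112 on M2, 18.8 on Lamtor1-deficient M2 and 15.9 on Torin1 M2. At base 2732 the probe read 29.2, 58.7, 8.53 and 10.2. M2 was highest and M1 next on both. The log2 ratios were -2.57 and -2.78 in Lamtor1-deficient cells, 5.95- and 6.88-fold lower, and -2.81 and -2.53 in Torin1-treated cells, 7.02- and 5.76-fold lower. Among genes well above background, 1.31% lay below the brighter probe in Lamtor1-deficient cells and 2.03% in Torin1-treated cells. The order of Lamtor1-deficient and Torin1 M2 differed between the probes, by 0.24 and -0.26 on the log2 scale, so it is not settled. In M1 cells both probes were close to the threshold, 2.05- and 2.01-fold lower, and -1.86 and -1.83 on the log2 scale after division by the median.

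Of the related adhesion receptors, Cd97 moved past 2-fold in opposite directions. It read 10.6 on M1, 75.7 on M2, 348 on Lamtor1-deficient M2 and 31.2 on Torin1 M2, which is 4.60-fold higher without Lamtor1 and a log2 ratio of -1.28 with Torin1. Emr4 was not well above background on any array. The pair together counted 0 lower and 1 higher without Lamtor1 (median 0.71), 1 lower and 0 higher with Torin1 (-1.08), and 1 lower and 0 higher in M1 cells (-1.40, or -2.22 after division by the median).

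Itgam encodes CD11b, and its 3 probes did not give the same answer. They lie on the plus strand of chromosome 7, the first 48075 bp before the second and the second 1420 bp before the last. Their sequences are shown because they differ in composition: the last probe opens with a run of 20 alternating C and A bases, shown in capitals, and the others, shown whole, hold none longer than 5.
Itgam, base 270, chr7:135212140-135212199: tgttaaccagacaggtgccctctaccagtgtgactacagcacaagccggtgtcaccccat
Itgam, base 3410, chr7:135260275-135260334: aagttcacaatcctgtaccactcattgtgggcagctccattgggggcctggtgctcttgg
Itgam, base 4431, first 30 bases, chr7:135261755-135261814: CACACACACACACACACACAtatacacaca

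The probe at base 3410 read 4.77 on M1, 6.63 on M2, 1.31 on Lamtor1-deficient M2 and 0.942 on Torin1 M2. It was 5.06-fold lower without Lamtor1 and 7.04-fold lower with Torin1, log2 ratios of -2.34 and -2.81. Near the start of the transcript the probe was dimmer and read 0.259, 0.267, 0.125 and 0.0791 on the same arrays. It was 2.14- and 3.38-fold lower, but with normexp background correction its log2 ratios were -0.56 and -0.84, within 2-fold, and with quantile normalization the first was -0.98. On both, M1 and M2 stood above Lamtor1-deficient M2, and Torin1 M2 was lowest.

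The probe at base 4431, the brightest, read 11.1 on M1, 13.97 on M2, 7.94 on Lamtor1-deficient M2 and 15.5 on Torin1 M2. Its log2 ratio was -0.81 without Lamtor1 and 0.15 with Torin1, the latter within the technical spread. Between this probe and that at base 3410 the log2 ratio differed by 1.52 without Lamtor1 and 2.96 with Torin1, a difference that 1.12% and 0.354% of the 1693 transcripts reached. In M1 cells the ratios of the 3 probes were -0.05, -0.48 and -0.34 in order of position, and -0.87, -1.30 and -1.16 after division by the median.

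After these values were seen, the other probes with a CA run of at least 20 bases were read in the same way. There were 23, of unrelated genes, all well above background on every array. With Torin1 all 23 had positive log2 ratios and 22 were 2-fold or more higher, with a median of 2.08 and a range of 0.71 to 2.45. Without Lamtor1, 22 were above M2, with a median of 0.53. Among them were the probes of Lhx6, Oprm1 and Fgf23, genes of neurons and bone, which read 2.08, 2.14 and 2.30 with Torin1. The 52 probes with a run of G and T of that length went the other way in these conditions, all 52 below M2, with medians of -0.82 without Lamtor1 and -1.38 with Torin1. In M1 cells both kinds lay above M2, all 23 with a median of 0.98 and all 52 with a median of 1.05. The part of the CA run in the Itgam value was not tested. Read by the brightest of its probes without such a run, Itgam is the one at base 3410, and the genes called lower number 2 without Lamtor1 and 4 with Torin1.

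**Figure D4:**
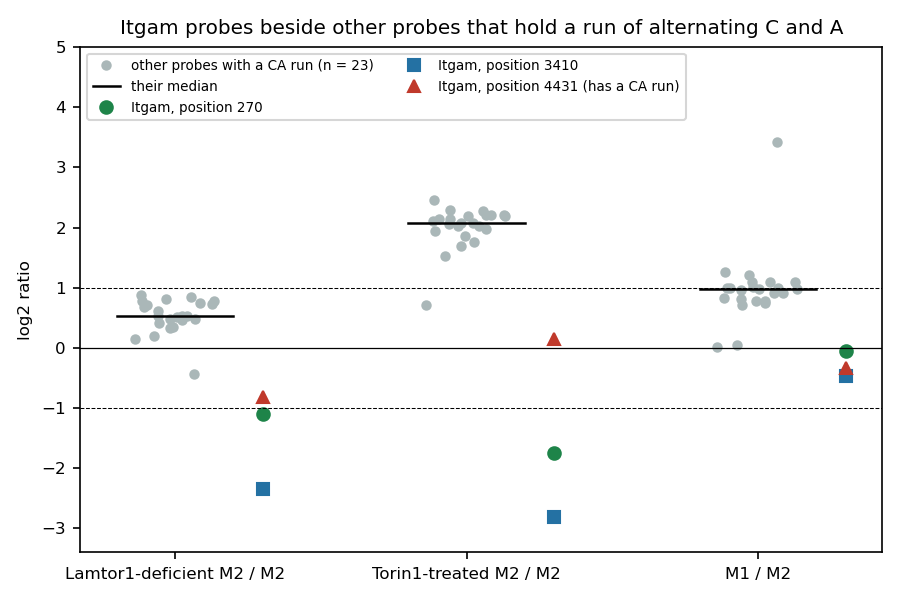
Log2 ratio to M2 (vertical axis) of the 3 Itgam probes and of 23 probes of other genes that hold a run of at least 20 alternating C and A bases, in the 3 comparisons (horizontal axis), with horizontal bars at the median of the 23. With Torin1 the 23 probes centre on 2.08, the Itgam probe with a run is at 0.15 and those without are at -1.76 and -2.81.

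**Figure D5:**
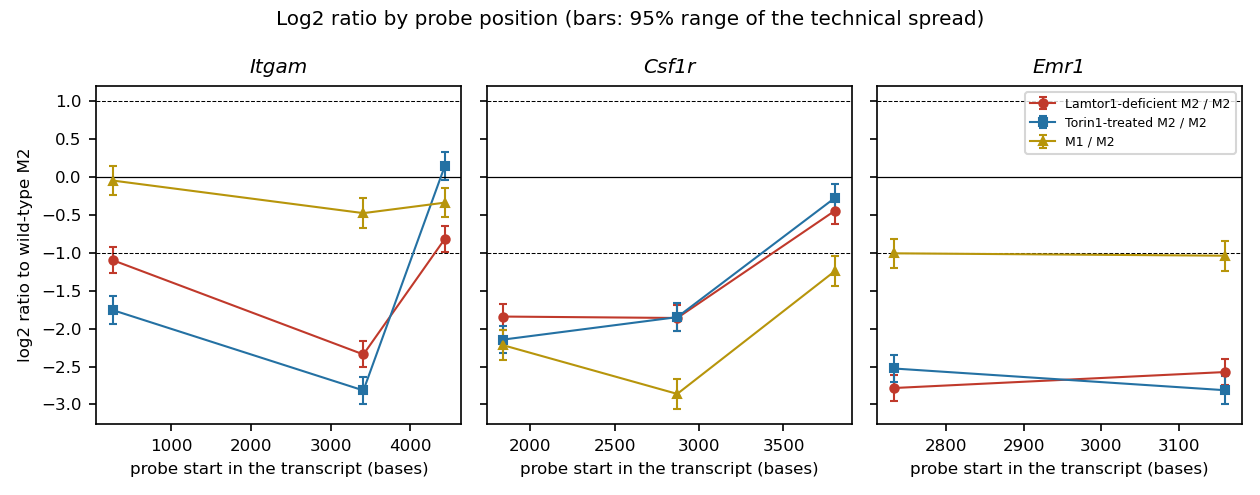
Log2 ratio to M2 (vertical axis) of the probes of Itgam, Csf1r and Emr1 by where the probe starts in the transcript in bases (horizontal axis), with bars for the 95% range of the technical spread. The last probe of Itgam and of Csf1r lies above the others without Lamtor1 and with Torin1, and the probes of Emr1 lie close together.

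Itgax, which encodes CD11c, had 1 probe (chr7:135294052-135294111, mm9) and read 2.17 on M1, 296 on M2, 204 on Lamtor1-deficient M2 and 128 on Torin1 M2. The 3 IL-4 arrays lay together far above M1, which was 137-fold below M2 with 0.732% of its signal, and its log2 ratio was -7.09, or -7.91 after division by the median. Among genes well above background on M1 and M2, 0.136% had a lower ratio. Within the IL-4 arrays Itgax was 1.45-fold lower without Lamtor1, under the threshold, and 2.31-fold lower with Torin1. The difference between Lamtor1-deficient and Torin1 M2, 0.67 on the log2 scale, was larger than the technical spread.

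Among 10 partners and relatives of these integrins, 1 was lower and 1 higher without Lamtor1 (median log2 ratio -0.16), 2 lower and 0 higher with Torin1 (-0.14), and 3 lower and 2 higher in M1 cells (-0.09, or -0.91 with 5 lower and 2 higher after division by the median). Itgb2, the beta chain CD18 that CD11b and CD11c share, read 65.8 on M1, 107 on M2, 152 on Lamtor1-deficient M2 and 174 on Torin1 M2, log2 ratios of 0.51 and 0.71 in the last 2. Itgad, an alpha chain of the same family, was at least 9.76-fold lower without Lamtor1, where it was not well above background, and had a log2 ratio of 0.72 with Torin1. Icam1, a ligand of these integrins, had log2 ratios of -0.27 without Lamtor1 and -2.69 with Torin1. Fermt3, the kindlin that activates leukocyte integrins, had -0.64 and -1.98. Itga4, which pairs with other beta chains, was 2.49-fold higher without Lamtor1 and had a log2 ratio of -0.80 with Torin1.

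Spi1, the gene of PU.1, was read by 1 probe across an exon junction (chr2:90939665-90953452, mm9). It read 6.95 on M1, 4.20 on M2, 3.24 on Lamtor1-deficient M2 and 2.22 on Torin1 M2. Each step was larger than the technical spread, and none reached 2-fold: the signal was 1.30-fold lower without Lamtor1 and 1.89-fold lower with Torin1. With arrays divided by the median the Torin1 ratio was -1.17, past 2-fold. The M1 ratio was 0.73, beside a median of 0.08 over genes well above background. Division by the median, which moves every M1 ratio down alike, gave -0.09, and the other scalings and normexp gave 0.58 to 0.74. The probe starts at base 275 of the transcript. Over the 1693 transcripts the M1 ratio at the 3′ probe minus that at the 5′ probe had a median of -0.61. Whether probe position had a part in the Spi1 value was not tested.

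Maf, the gene of c-Maf, had the same order on both probes, M1 above M2 above Lamtor1-deficient M2 above Torin1 M2. The brighter (chr8:118227736-118227795, mm9) read 12.7, 7.90, 4.85 and 2.88 in that order and was 1.63-fold lower without Lamtor1 and 2.75-fold lower with Torin1. The other, 20403 bp away, read 0.673, 0.551, 0.227 and 0.124 and was 2.43- and 4.44-fold lower, with log2 ratios of -1.28 and -2.15 that were -0.91 and -1.30 after normexp background correction, the first within 2-fold. The direct difference between Lamtor1-deficient and Torin1 M2, which does not use the M2 array, was 0.75 and 0.87 on the log2 scale. The M1 ratios were 0.69 and 0.29, and -0.13 and -0.53 after division by the median.

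Cebpa, the gene of C/EBP-alpha, stayed within 2-fold among the IL-4 arrays. Its probe (chr7:35906517-35906576, mm9) read 7.60 on M1, 22.7 on M2, 20.1 on Lamtor1-deficient M2 and 17.7 on Torin1 M2. The log2 ratio was -0.17 without Lamtor1, just beyond the 95% range of the technical spread, 0.172, and -0.36 with Torin1. M1 was 2.99-fold below M2, a log2 ratio of -1.58, or -2.40 after division by the median.

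Cebpb, the gene of C/EBP-beta, had the opposite order. Its probe (chr2:167515828-167515887, mm9) read 394 on M1, 52.1 on M2, 68.0 on Lamtor1-deficient M2 and 132 on Torin1 M2. It was 1.30-fold higher without Lamtor1, 2.54-fold higher with Torin1 and 7.55-fold higher in M1 cells. Lamtor1-deficient and Torin1 M2 differed by -0.96 on the log2 scale, more than the technical spread. After division by the median the M1 ratio was 2.10, with the same sign.

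Of 14 genes of the Maf, Ets and C/EBP families, 4 were lower and 1 higher without Lamtor1 (median log2 ratio -0.51), 6 lower and 2 higher with Torin1 (-0.06), and 4 lower and 7 higher in M1 cells (0.80, or -0.02 with 5 lower and 6 higher after division by the median). Maff, a small Maf protein without an activation domain, was the one higher without Lamtor1: it read 10.9 on M1, 0.499 on M2, 7.39 on Lamtor1-deficient M2 and 4.06 on Torin1 M2, 14.8- and 8.14-fold above M2. M2 was lowest of the 4 arrays for Maff. Cebpe, a factor of late granulocyte development, was not well above background on Lamtor1-deficient or Torin1 M2 and was at least 20.6- and 25.9-fold lower. Spib, a close relative of PU.1, had a log2 ratio of -1.40 without Lamtor1 and was at least 7.46-fold lower with Torin1.

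Of 16 other transcription factors of myeloid cells, 5 were lower and 1 higher without Lamtor1 (median -0.44), 4 lower and 2 higher with Torin1 (-0.24), and 3 lower and 5 higher in M1 cells (-0.24, or -1.06 with 9 lower and 4 higher after division by the median). Klf2, which restrains inflammatory genes, read 10.2 on M2, 2.74 on Lamtor1-deficient M2 and 1.75 on Torin1 M2. Klf4, a factor of monocyte and M2 differentiation, had log2 ratios of -0.16 without Lamtor1 and -4.07 with Torin1, from 8.51 on M2 to 0.505 on Torin1 M2. Id3, an inhibitor of basic helix-loop-helix factors, was 3.66-fold higher with Torin1 and 1.13-fold without Lamtor1. Gfi1, a repressor of granulocyte and lymphoid cells, was not well above background on M2 and was at least 22.3-fold higher without Lamtor1 and 4.49-fold higher with Torin1.

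The macrophage label was read beside 14 further marker genes, all of which were well above background on all 4 arrays. That level does not set macrophages apart. All 8 neutrophil markers on the array reached it on Lamtor1-deficient and Torin1 M2, and all 8 fibroblast markers on M2. The summed signal of the 14 macrophage markers was 3999 on M1, 1974 on M2, 2287 on Lamtor1-deficient M2 and 2434 on Torin1 M2. Without Lamtor1, 3 were lower and 0 higher (median log2 ratio 0.21), with Torin1 2 lower and 1 higher (0.22), and in M1 cells 0 lower and 5 higher (0.66, or -0.16 with 2 lower and 3 higher after division by the median). Quantile normalization gave medians of -0.03 without Lamtor1 and 0.02 with Torin1. After division by the median the Torin1 median was -0.03, with 2 lower and 0 higher. Cd68, a lysosomal glycoprotein of macrophages, and Mertk, a receptor for apoptotic cells, were within 2-fold of M2 without Lamtor1 and with Torin1, with log2 ratios between 0.34 and 0.90. Aif1, a calcium-binding protein of macrophages, fell from 66.1 on M2 to 3.59 without Lamtor1 and 0.732 with Torin1. Fcgr1, the high-affinity IgG receptor, fell from 5.20 to 0.167 and 0.213, while Cd14, the LPS co-receptor, was at 5.62 without Lamtor1 and 20.4 with Torin1 against 20.4 on M2. Mpeg1, which forms pores in phagosomes, was 2.09-fold higher with Torin1.

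Markers of other cells were read as well. Of 10 neutrophil markers 8 were on the array, and 7 of them were lower than on M2 in each comparison, with median log2 ratios of -2.85, -3.24 and -2.90 (-3.73 in M1 cells after division by the median). Their summed signal was 4.58 on M1, 90.8 on M2, 6.45 on Lamtor1-deficient M2 and 5.99 on Torin1 M2. S100a9, a subunit of calprotectin, made up 65.3 of the M2 sum. Prtn3 was not well above background on M2, nor were Ngp, Ltf and Prtn3 on M1. Itgam and Cebpe are also expressed by neutrophils. Their part in the Itgam, Cebpe and Emr1 values was not tested.

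Of 5 monocyte markers on the array, 2 were lower without Lamtor1, 3 with Torin1 and none higher, with medians of -0.81 and -1.63. Among those well above background on both arrays 1 and 0 were lower, with medians of -0.11 and -0.12, and after normexp background correction 1 and 1, with medians of -0.25 and -0.22. In M1 cells 1 was lower and 3 higher, median 7.35 (6.53 with 2 lower after division by the median), and the sum was 1154 beside 4.87 to 7.47 on the IL-4 arrays. Ccr2, the chemokine receptor of inflammatory monocytes, read 2.26 on M2 and 0.0579 without Lamtor1. It was not well above background with Torin1, at least 67.3-fold lower. Of 8 dendritic cell markers, 0 were lower and 2 higher after either perturbation and 5 higher in M1 cells, with medians of -0.05, 0.52 and 1.44 in the 3 comparisons (0.62 with 3 higher in M1 cells after division by the median), sums of 89.2 to 234 and Cd209a and Xcr1 not well above background on any array. Among the 3 well above background on both arrays, which leaves out any that rose from background, 1 was higher without Lamtor1, 0 with Torin1 and 2 in M1 cells. Siglech made up 96.7 of the 97.1 on M2. Of 8 fibroblast markers, 1 was lower and 3 higher without Lamtor1 (median 0.43), 4 lower with Torin1 (-1.02), and 6 lower and 1 higher in M1 cells (-2.51, or -3.33 after division by the median), with sums of 16.2, 44.8, 57.1 and 16.9 on M1, M2, Lamtor1-deficient and Torin1 M2. After normexp background correction the fibroblast medians were -0.47 with 3 lower in Torin1-treated cells and -1.29 with 4 lower in M1 cells.

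Lymphocyte markers summed to between 2.10 and 4.32 and those of mast cells and eosinophils to between 1.58 and 10.3. Of 10 lymphocyte markers 3 were lower and 4 higher without Lamtor1 (median 0.00), 3 lower and 0 higher with Torin1 (-0.16) and 1 lower and 4 higher in M1 cells (0.74, or -0.08 after division by the median), with Ms4a1 and Klrb1c among those not well above background on any array. On M2 7 of the 10 were not. The other 3, Cd3e, Cd79a and Cd79b, counted 1 lower and 0 higher without Lamtor1, 2 and 0 with Torin1, and 1 and 0 in M1 cells. That count leaves out genes that rose from background. Of these, Cd3d, Cd3g, Cd8a and Ncr1, markers of T and NK cells, were well above background on the Lamtor1-deficient array alone, at least 4.35-, 1.79-, 2.37- and 6.29-fold higher than on M2. After normexp background correction 1 of the 10 was lower and 2 higher without Lamtor1, 1 and 0 with Torin1, and 1 and 4 in M1 cells. Of 7 mast cell and eosinophil markers 2 were lower and 1 higher without Lamtor1 (-0.32), 2 lower and 1 higher with Torin1 (-0.09) and 2 lower and 2 higher in M1 cells (0.79, or -0.03 after division by the median), with Ms4a2 and Epx not well above background on any array. Among those well above background on both arrays 0 were lower and 1 higher without Lamtor1 and with Torin1, and 1 lower and 1 higher in M1 cells.

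For each of the 9 genes the genes with the most similar ratios were sought among 12823 well above background on all 4 arrays, by the root mean square difference over the 3 ratios to M2. Emr1 was nearest to Dck (0.19), a deoxycytidine kinase, and Ciita (0.30), the MHC class II transactivator. Csf1r was nearest to Vrk1 and Echdc2 (0.04 and 0.05), Csf1 to Fry and Pcyt1a (0.08 and 0.15), and Itgam, by its brightest probe, to Noc3l and Fam76b (0.06 and 0.08). Itgax had no close companion: its nearest, Arhgap6 and Atic, were at 0.42 and 0.48. Maf was nearest to Traf3ip2 and Gm7644 (0.04 and 0.09), Spi1 to Med21 and Jak3 (0.04 and 0.05), Cebpa to Nudt21 and Gm5196 (0.03 and 0.05), and Cebpb to Fam70b and Rasgef1b (0.14 each). With 3 values per gene and this many genes, close neighbours are to be found for most patterns.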

How the data were processed

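RNA of 4 BMDM cultures was labelled with cyanine-3 and hybridised to Agilent 8 x 60K mouse arrays. The deposited intensity values are processed signals (background subtracted, in linear units) from Feature Extraction, version 10.5.1.1 per the submitters' processing notes and 10.7.3.1 per the file headers. The authors then shifted arrays to the 75th percentile in other software. The deposited value table matched the scanner intensities to within 0.497% and served as an alternative. Probe coordinates are mm9, as in the files, and 126 of 128 listed genes were on the array.

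Here, spots marked as outliers were left out, spots were averaged per probe, and signals were divided by the 75th percentile over non-control probes and log2-transformed (Python 3.11.15, NumPy 2.4.6, pandas 2.3.3). The technical SD came from probes spotted at least 8 times. At 1 array per condition, precision is limited by their number, and p-values were not computed. A bound ("at least") replaced the ratio where a probe was not well above background on 1 array: the brighter signal over the higher of that probe's signal and the array's lowest signal well above background. Code was tested on simulated data.

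Named genes are all probes of the 9 genes, up to 4 genes of each related list past 2-fold without Lamtor1 or with Torin1 and well above background on at least 1 array (largest ratios first), the 2 nearest genes by pattern and Lamtor1. Itgb2, Il34, Csf2, Csf3, Emr4, Cd68, Mertk, Siglech the CA-run probes and markers not above background lie outside this rule and were picked with their values in view. Cd3e, Cd79a and Cd79b were named whatever their ratio. Some listed genes are counted but not reported by name here. The members and the lists (colony-stimulating factors, integrin partners, adhesion receptors, transcription factor families, other myeloid factors, and markers of macrophages, dendritic cells, monocytes, neutrophils, lymphocytes, mast cells and eosinophils, and fibroblasts) were chosen with earlier results of these data known. Alternatives were division by the median, quantile normalization, normexp with an offset of 50 (limma 3.58.1, R 4.3.3), the percentile over probes well above background, a floor, outlier spots kept, the value table, the median signal over a gene's probes, a 3-fold threshold and, chosen after seeing the data, probes without a CA run and the median of the log2 ratios of a gene's probes.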

Additional observations from a re-analysis of the deposited data

How the results depend on the processing

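Recomputed under 10 alternatives, 256 log2 ratios of the 9 genes kept their side of the 2-fold threshold, 11 came past it in the same direction and 3 came past it in the opposite one. The 3 were Itgam with Torin1, from 0.15 to -2.81 when the median signal over its probes or the brightest probe without a CA run stood for it, since both take the probe at base 3410, and to -1.76 with the median of its probes' ratios. The median signal over probes gave Csf1r at -1.86 and Itgam at -2.34 without Lamtor1, Csf1r at -1.85 with Torin1 and Csf1 at 1.66 in M1 cells. The last sets different probes of Csf1 against each other on M1 and M2 and is no ratio of a probe. The median of the probes' ratios, chosen after seeing the data, gave 1.80 there, with Csf1r at -1.84 and -1.85 and Itgam at -1.10 without Lamtor1. Without a CA run Itgam was at -2.34 without Lamtor1. Division by the median gave Spi1 at -1.17 with Torin1 and Itgam at -1.16 in M1 cells, and turned the sign of 4 ratios within 2-fold: Itgam with Torin1 (-0.10) and Csf1, Maf and Spi1 in M1 cells (-0.34, -0.13 and -0.09). Genes called lower without Lamtor1 numbered 1, but 3 by either median over probes and 2 without a CA run. Those called lower with Torin1 numbered 5 by either median over probes, and those called higher in M1 cells 2, the second being Csf1. At 3-fold, 0 genes were higher without Lamtor1, 1 was lower and 0 higher with Torin1, and 1 was lower in M1 cells. Taking only probes well above background on both arrays reversed the median of colony-stimulating factors without Lamtor1 (-0.042), of transcription factor families with Torin1 (0.23), of lymphocyte markers without Lamtor1 and in M1 cells (-0.90 and -0.43) and of mast cell and eosinophil markers with Torin1 and in M1 cells (0.92 and -1.17), where fewer genes were left. No paired analysis was possible because each condition has 1 array. Ratios near background are least certain: the median SD of repeated spots was 0.0622 on M2 for probes well above background and 0.182 for the others.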
